A study of Mus musculus with 6 samples.

Results

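The Hippo pathway and the genes known to be switched on by its effectors, 40 mouse genes in all, were followed in pancreatic tumour organoids with and without depletion of the polarity gene Scrib. They were chosen by symbol from the 54453 genes of the deposited tables, and each symbol was found once. Of these, 24 encode pathway components and 16 are YAP/TAZ targets. The RNA came from 3 lines of mouse tumour organoids, T91, T113 and T118, all of the labelled genotype KPF/FC (an abbreviation that the sources used here leave unexplained) and grown in Matrigel. The labels give the lines as KPC organoids of pancreatic ductal adenocarcinoma. Each line gave 1 library with a short hairpin RNA against Renilla luciferase, the control, and 1 with the Scrib hairpin numbered 5523, so that both groups of 3 libraries carry the tumour genotype and a hairpin. The labels' treatment text has the hairpins delivered by virus, while the series' design text has them as plasmids. T91 is a female line at passage 10, T118 a male line at passage 11 and T113 a male line at passage 13. Each line was sampled once per hairpin. The effects of line, sex and passage therefore cannot be told apart, and p-values over lines rest on 3 pairs with no repeat within a line. All Scrib libraries carry the same hairpin, so depletion of Scrib cannot be told apart from other effects of that hairpin.

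In the Hippo pathway the kinases MST1 and MST2 (Stk4 and Stk3), held by the scaffold Sav1, activate the kinases Lats1 and Lats2, which work with the Mob1 adaptors. Lats kinases phosphorylate the coactivators YAP (Yap1) and TAZ (Wwtr1), which then stay in the cytoplasm or are degraded. Unphosphorylated YAP and TAZ enter the nucleus, bind the DNA-binding TEAD factors and turn on genes such as Ccn1, Ccn2 and Ankrd1. Scribble is known as a scaffold that brings Hippo kinases to the membrane of polarised epithelial cells. In pancreatic cancer, YAP and TAZ are known for their part in tumour growth. Because the kinase cascade acts through phosphorylation, mRNA levels show how much of each component is transcribed and not how active the pathway is.

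Estimated counts summed to between 24035559 and 36235773 per library. Scrib itself stood at 164 ± 11.1 counts per 1000000 (CPM, after TMM scaling) with the Renilla hairpin and at 31.6 ± 2.95 with the Scrib hairpin (SD, n = 3 each). Its adjusted p was 0.00582 (edgeR's quasi-likelihood F-test, Benjamini-Hochberg adjustment over all genes), under the threshold of 0.05. Changes between hairpins are log2 values, Scrib over Renilla, each followed by its standard error (SE) from the fit. All 8 epithelial markers were present, with summed levels of 6484 to 9947 CPM per library. Fibroblast markers summed to 7.70 CPM in the T91 library with the Scrib hairpin and to 1.10 to 2.18 in the other 5 libraries, with Lum at 0 throughout. Immune markers summed to at most 2.12 CPM, in that same library, and endothelial and acinar markers to at most 1.64 and 0.9985. Neural and Schwann cell markers summed to 72.5 to 108 CPM, nearly all of it Mbp, with Sox10 at 0. The part of these markers in the T91 results was not tested. The T91 library with the Scrib hairpin also stood apart in its long transcripts. In it, log2 levels relative to the mean of the 6 libraries had a median of 0.15 for protein-coding genes with a longest coding transcript of up to 2 kb and of -0.35 for those over 8 kb, against -0.11 to 0.20 for the latter in the other 5. Hairpin results are therefore also given without T91.

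Of the 40 genes, 36 passed the filter on low counts, namely 22 components and 14 targets. Fat4 and Dchs1, giant cadherins at the head of the pathway in flies, were next to absent, with 0 to 13 counts per library for Fat4 and 0 to 2 for Dchs1. Where a library held 0 counts, a level of up to 0.0828 to 0.125 CPM was not detectable (3 counts, counting error only). The target Rbms3, an RNA-binding protein gene, had 84 and 53 counts in T91 (Renilla, then Scrib hairpin), 11 and 6 in T113 and 0 and 1 in T118. Fjx1, a secreted kinase gene related to four-jointed of flies, had 72 and 34 counts in T91, 3 and 4 in T113 and 1 and 0 in T118. Both thus had most of their counts in T91. With no filter on low counts, both passed edgeR's F-test for the line (adjusted p = 2.39e-06 for Rbms3 and 6.12e-06 for Fjx1), where 10.8% of 27467 genes passed, and Fat4 and Dchs1 did not. None of these 4 genes passed for the hairpin in that fit (adjusted p = 0.942 each by edgeR).

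**Figure D1:**
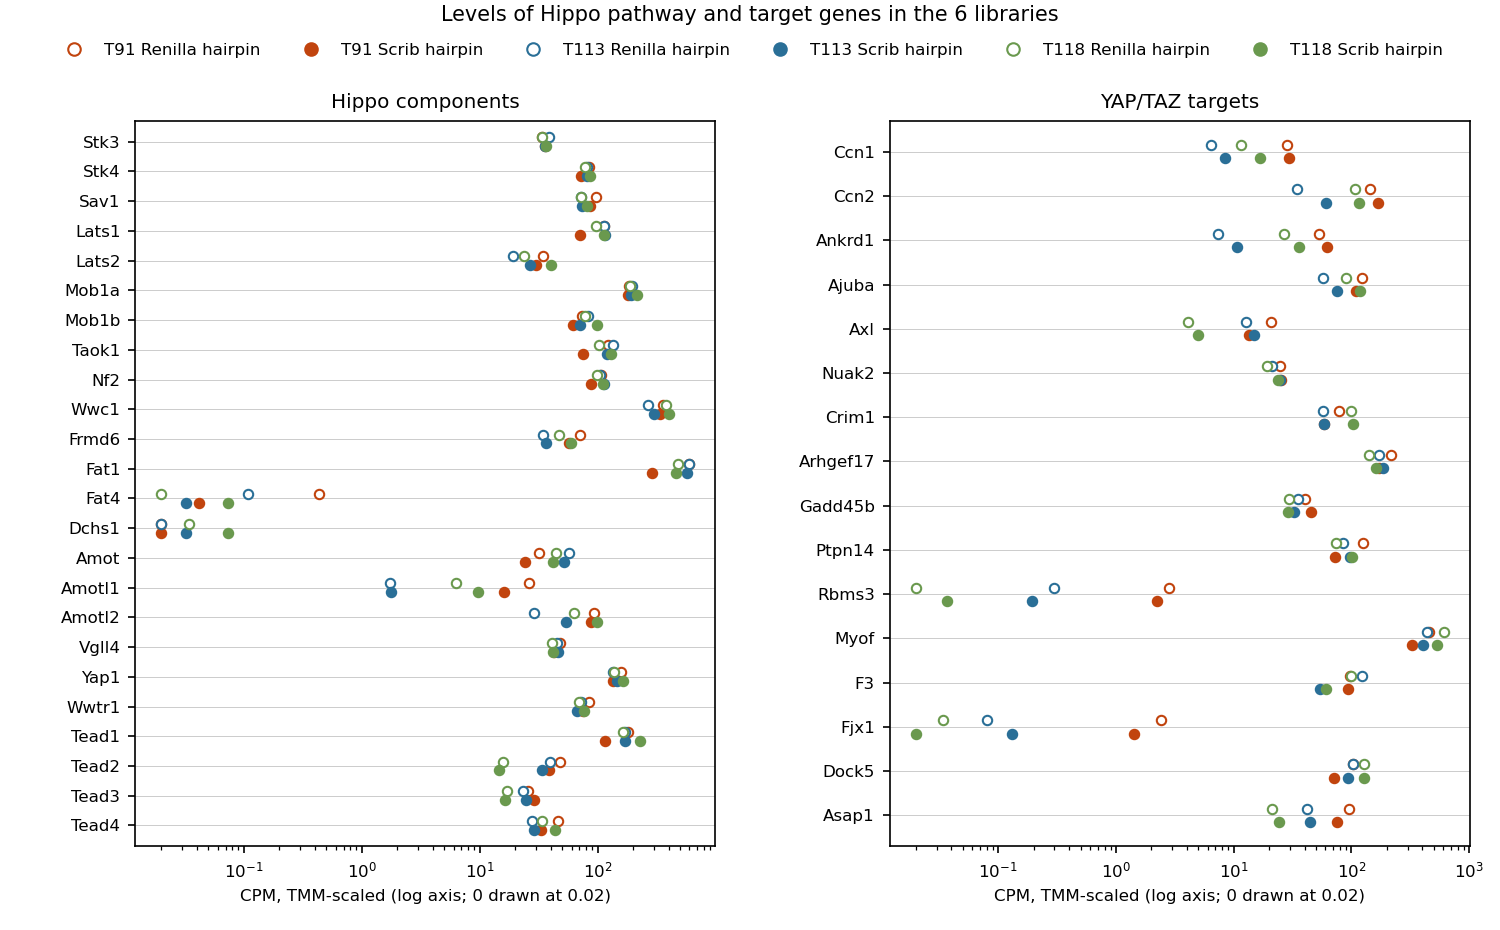
CPM after TMM scaling (log axis) of all 24 components and 16 targets, 1 point per library, coloured by line, open for the Renilla and filled for the Scrib hairpin. Most components lie within a narrow band across the libraries, while Ankrd1, Ccn1, Ccn2, Asap1 and Amotl1 split by line and Fat4, Dchs1, Rbms3 and Fjx1 lie near the limit of detection.

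Levels between genes were compared as CPM per kilobase of the exons of all annotated transcripts joined together, as a mean over the 6 libraries with its SD. Among TEAD genes, Tead1 stood at 12.6 ± 2.63, Tead4 at 9.86 ± 2.09, Tead2 at 6.61 ± 2.85 and Tead3 at 3.36 ± 0.724 (n = 6 each). The ranges of Tead1 and Tead4 overlapped, as did those of Tead4 and Tead2 and of Tead2 and Tead3, while that of Tead3 (2.46 to 4.26) lay below that of Tead4 (7.77 to 12.7). With the longest coding transcript as the length, the order of these 4 means was kept. The ranges of Tead3 (5.95 to 10.3) and Tead4 (9.08 to 14.9) then overlapped, so their separation rests on the length used. Yap1 and Wwtr1 differed by less than their spread on the joined exons, at 15.8 ± 1.34 and 15.5 ± 1.34 CPM per kilobase, but stood at 35.0 ± 2.97 and 15.8 ± 1.37 on the longest transcript, so their order rests on the length used. Among the paralogous kinases, Stk4 was above Stk3 (13.7 ± 0.899 and 5.83 ± 0.326) and Lats1 was above Lats2 (14.2 ± 2.42 and 4.15 ± 1.08), with no overlap in either pair. On the longest coding transcript Stk4 and Stk3 were closer, at 15.4 ± 1.01 and 12.2 ± 0.685, still without overlap. The adaptor gene Mob1a was at 40.3 ± 2.61, above Mob1b at 5.17 ± 0.836, and on the longest transcript these stood at 43.8 ± 2.84 and 8.67 ± 1.401. Wwc1, which encodes the Lats activator KIBRA, was the highest of the 24 components at 68.5 ± 10.1. Of the 16 targets, Myof, which encodes the membrane-repair protein myoferlin, Ccn2 and F3 had the highest means on this scale, at 36.7 ± 7.77, 36.6 ± 17.3 and 34.8 ± 10.3, and their ranges overlapped. On the longest transcript Myof, F3 and Ccn2 stood at 65.2 ± 13.8, 47.0 ± 14.0 and 42.0 ± 19.9.

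The first comparison asked whether the pathway's components differed between the Scrib and the Renilla hairpin. Of the 22 components tested, 0 passed edgeR's quasi-likelihood test after adjustment over all 14169 genes, where 0.00706% of genes passed, the 1 gene being Scrib. At an unadjusted p under 0.05 there was 1 component (Amotl2), against 6.61% of all genes. The median log2 change of the components was -0.03, with 13 below 0 and 9 above, and that of all genes was -0.01, with 51.8% below 0. The 3 lines differed in sign behind this median. In T91, 20 of 22 components were lower with the Scrib hairpin (49.8% of all genes), in T113 there were 10 (50.5%), and in T118 there were 4 (50.2%). Their median log2 ratio went from -0.25 in T91 through 0.02 in T113 to 0.19 in T118, while that of all genes lay close to 0 in each line, at -0.0029 at the lowest. With 1 pair per line, the difference between lines was not tested.

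The coactivators did not pass the test either. Yap1 (ENSMUSG00000053110) stood at 158 CPM with the Renilla and 135 with the Scrib hairpin in T91, at 134 and 147 in T113, and at 138 and 164 in T118. The 2 groups overlapped, and the fitted change was 0.05 (SE 0.12, 95% interval -0.23 to 0.33; adjusted p = 0.938 by edgeR). Wwtr1 was at 85.0 and 75.0 CPM in T91, at 72.4 and 66.7 in T113, and at 69.6 and 76.85 in T118 (log2 change -0.05, SE 0.10, 95% interval -0.30 to 0.20). For both coactivators the interval leaves out a change of 1.5-fold or more in either direction.

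The TEAD genes had ratios of either sign. Tead1 was at 181 and 115 CPM in T91 (Renilla, then Scrib hairpin), at 169.8 and 169.8 in T113, and at 165 and 226 in T118. Its Scrib libraries thus held both the lowest and the highest of the 6 values (log2 change -0.07, SE 0.20). Tead4 was at 45.7 and 33.1, 27.9 and 28.7, and 33.9 and 43.55 CPM in the same order (log2 change -0.02, SE 0.16). Tead2 was lower in each line, at 48.0 and 38.4, 39.7 and 33.5, and 15.8 and 14.5 CPM. Its log2 change of -0.23 (SE 0.10) did not pass, with an adjusted p of 0.767 by edgeR. Tead3 was at 25.65 and 28.6, 23.1 and 24.6, and 17.0 and 16.5 CPM (log2 change 0.07, SE 0.11). No TEAD gene passed the adjusted test.

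Among the kinases, scaffolds and adaptors, Stk3, Stk4, Sav1, Mob1a, Mob1b and Lats1 had log2 changes between -0.15 and 0.05, none past the test. The exception in size was Lats2, which is itself a known YAP/TAZ target and so part of the pathway's feedback. It stood at 34.2 and 30.0 CPM in T91 (Renilla, then Scrib hairpin), at 19.2 and 26.65 in T113, and at 23.55 and 40.0 in T118. The Scrib library was thus the higher in T113 and T118 and the lower in T91, and the groups overlapped (log2 change 0.35, SE 0.185, adjusted p = 0.781 by edgeR). A predicted transcript, Gm49361, shares 41.8% of the 31-base words of Lats2. It held 32 counts in the T113 Scrib library, 1.04 CPM, and 0 in the other 5.

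Upstream regulators were mixed as well. Fat1, a giant cadherin that promotes Hippo signalling, stood at 595 and 288 CPM in T91, 591 and 568 in T113, and 476 and 457 in T118. It was lower in each line, but by a log2 ratio of -1.05 in T91 and of -0.06 in both others (log2 change -0.38, SE 0.21, adjusted p = 0.7825 by edgeR). Nf2, which encodes the membrane scaffold merlin, Wwc1 and Frmd6, a FERM-domain protein gene, had log2 changes of -0.00, 0.06 and 0.04. Taok1, a kinase that phosphorylates MST, was at 122 and 74.8 CPM in T91, 134 and 121 in T113, and 102 and 129 in T118 (log2 change -0.17, SE 0.19).

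Of the proteins that hold YAP or TEAD, the angiomotins tether YAP at junctions and VGLL4 competes with YAP for TEAD. Amotl2, an angiomotin gene and a known YAP/TAZ target, was at 92.8 and 87.0 CPM in T91, at 28.9 and 53.7 in T113, and at 63.2 and 98.3 in T118. The difference lay in T113 and T118, with log2 ratios of 0.89 and 0.64 against -0.09 in T91. Over the 3 lines the log2 change was 0.48 (SE 0.19, 95% interval 0.02 to 0.93), with an unadjusted p of 0.0427 and an adjusted p of 0.753 by edgeR. Amot, on chromosome X, was lower in each line at 31.9 and 24.02, 56.8 and 52.1, and 44.5 and 41.8 CPM (log2 change -0.20, SE 0.11). Amotl1 was at 26.2 and 16.2, 1.72 and 1.76, and 6.35 and 9.625 CPM, with T91 and T118 on opposite sides of 0. Vgll4 had a fitted change of -0.03 (SE 0.10).

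**Figure D2:**
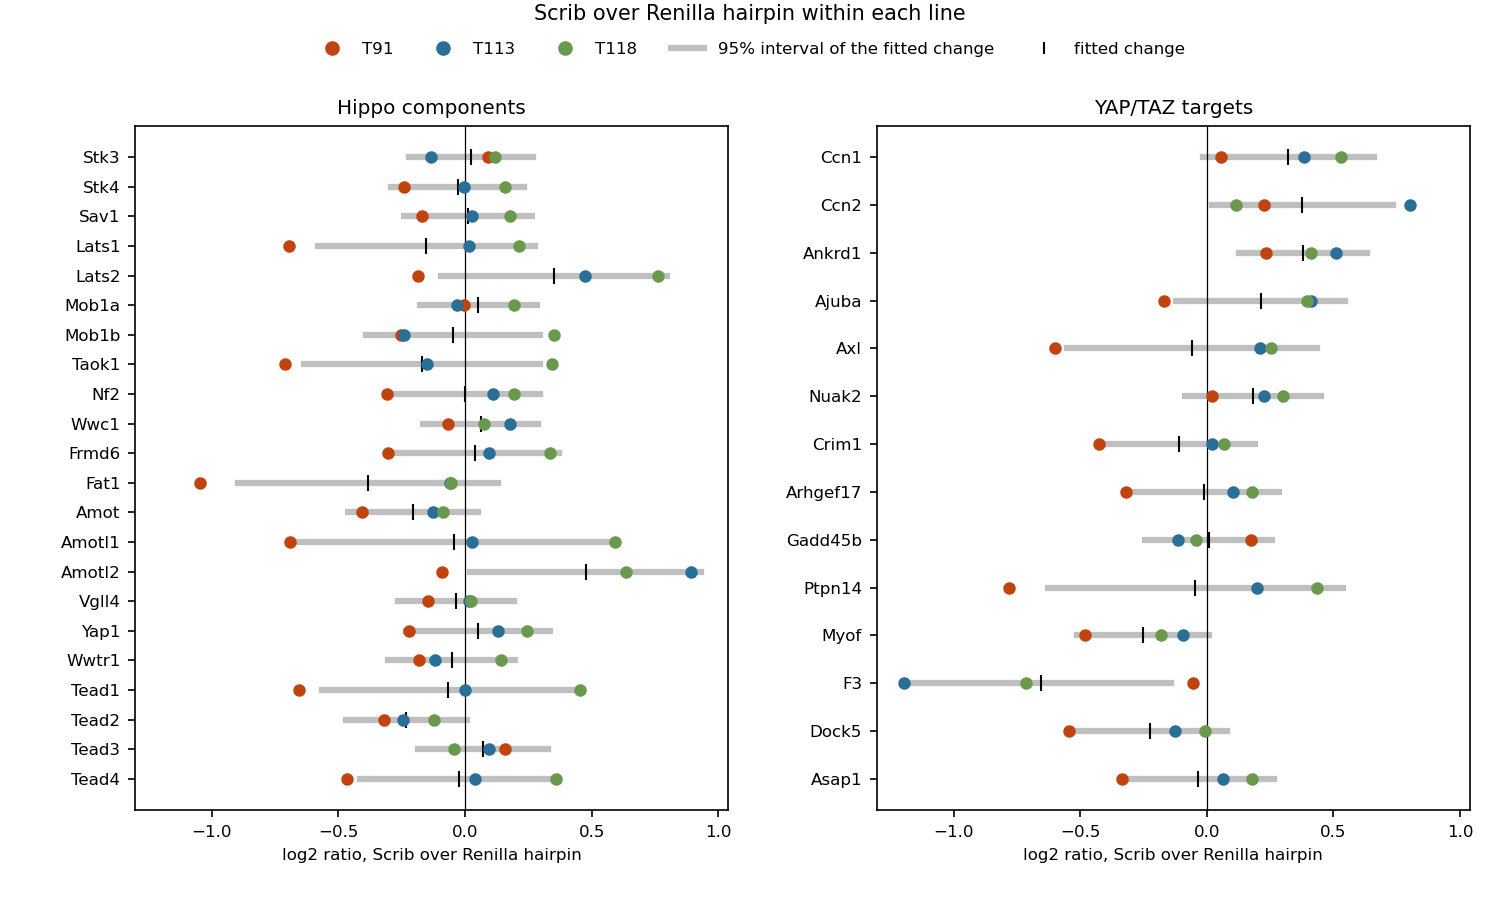
Log2 ratio of Scrib over Renilla hairpin for the 22 components and 14 targets tested, 1 point per line, with the fitted change (tick) and its 95% interval (grey bar). In 20 of 22 components the T91 point lies below 0, and the points of Ccn1, Ccn2, Ankrd1 and Nuak2 lie above 0 in all 3 lines.

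The second comparison took the targets apart from the components. Of 14 targets tested, 0 passed edgeR's test adjusted over all genes, and 2 higher (Ankrd1, Ccn2) and 1 lower (F3) had an unadjusted p under 0.05, where 1.55% of all genes were higher and 5.06% lower at that level. The 3 targets most used as readouts of YAP and TAZ, Ankrd1, Ccn1 and Ccn2, were higher with the Scrib hairpin in each line. So was Nuak2, a kinase gene, although in T91 by a log2 ratio of 0.02 only. These 4 of 14 make 28.6%, against 14.7% of all genes higher in all 3 lines. F3, Myof and Dock5 were the 3 targets (21.4%) lower in all lines, against 15.4%, with Dock5 in T118 at a log2 ratio of -0.007 only. The median log2 change of the targets was -0.02, with 6 above and 8 below 0.

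Ankrd1 (ENSMUSG00000024803), which encodes a nuclear ankyrin-repeat protein, stood at 52.9 and 62.2 CPM in T91 (Renilla, then Scrib hairpin), at 7.41 and 10.6 in T113, and at 26.9 and 35.8 in T118. The groups overlapped, since the lines lie far apart, but each Scrib library was above its own control. The fitted change was 0.38 (SE 0.11, 95% interval 0.13 to 0.63), and the adjusted p of 0.692 by edgeR missed the threshold. Ccn2, a secreted matricellular protein gene also known as Ctgf, was at 143 and 167, 34.8 and 60.8, and 106.5 and 115 CPM in the same order. Its log2 change was 0.38 (SE 0.15, adjusted p = 0.748 by edgeR), with most of it in T113, where the log2 ratio was 0.80 against 0.23 and 0.12 in T91 and T118. Ccn1, its relative also known as Cyr61, was at 28.3 and 29.5, 6.41 and 8.40, and 11.6 and 16.8 CPM (log2 change 0.32, SE 0.14, 95% interval -0.02 to 0.66). Ajuba, whose LIM protein is known to restrain Lats, was at 123.5 and 110, 57.1 and 76.1, and 89.2 and 117 CPM. Its ratio was thus below 0 in T91 and above it in both others.

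F3, which encodes tissue factor, the cell-surface starter of coagulation, was lower in each line. It stood at 97.5 and 93.8 CPM in T91, at 123 and 53.6 in T113, and at 99.5 and 60.7 in T118. The 3 Scrib libraries all lay below the 3 control libraries, although in T91 by a log2 ratio of -0.06 only. The log2 change was -0.66 (SE 0.21, 95% interval -1.17 to -0.14), with an unadjusted p of 0.0209 and an adjusted p of 0.742 by edgeR. Myof was at 459 and 329, 436 and 408, and 608 and 536 CPM (log2 change -0.25, SE 0.11, adjusted p = 0.769 by edgeR). The remaining targets had log2 changes between -0.22 (Dock5, a guanine nucleotide exchange factor gene) and 0.18 (Nuak2).

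The ratios in T91 followed transcript length. Among the 36 genes tested, the rank correlation between the longest coding transcript and the log2 ratio was -0.82 (T91), -0.24 (T113) and 0.12 (T118). Over 12216 protein-coding genes it was -0.59, -0.08 and 0.18. The points of a line share 1 pair of libraries, so these are descriptions. For all protein-coding genes in T91 the median log2 ratio was 0.20 up to 2 kb, 0.03 from 2 to 4 kb, -0.15 from 4 to 6 kb, -0.33 from 6 to 8 kb and -0.48 beyond. From the shortest to the longest class it fell from 0.02 to -0.06 in T113 and rose from -0.08 to 0.14 in T118. The 8 members beyond 8 kb, with Fat1, Taok1, Tead1 and Ptpn14 among them, had medians of -0.67 (T91), -0.03 (T113) and 0.35 (T118). After each ratio was centred on the median of genes in the same length class, the components had medians of -0.12 (T91), 0.03 (T113) and 0.15 (T118), with 16, 7 and 4 of 22 below 0. Those of the targets were -0.04, 0.20 and 0.11. The components' median in T91 was thus nearer to 0 after centring, at -0.12 against -0.25, and was still below those of T113 and T118. The highest fibroblast marker sum lay in the same T91 Scrib library.

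**Figure D3:**
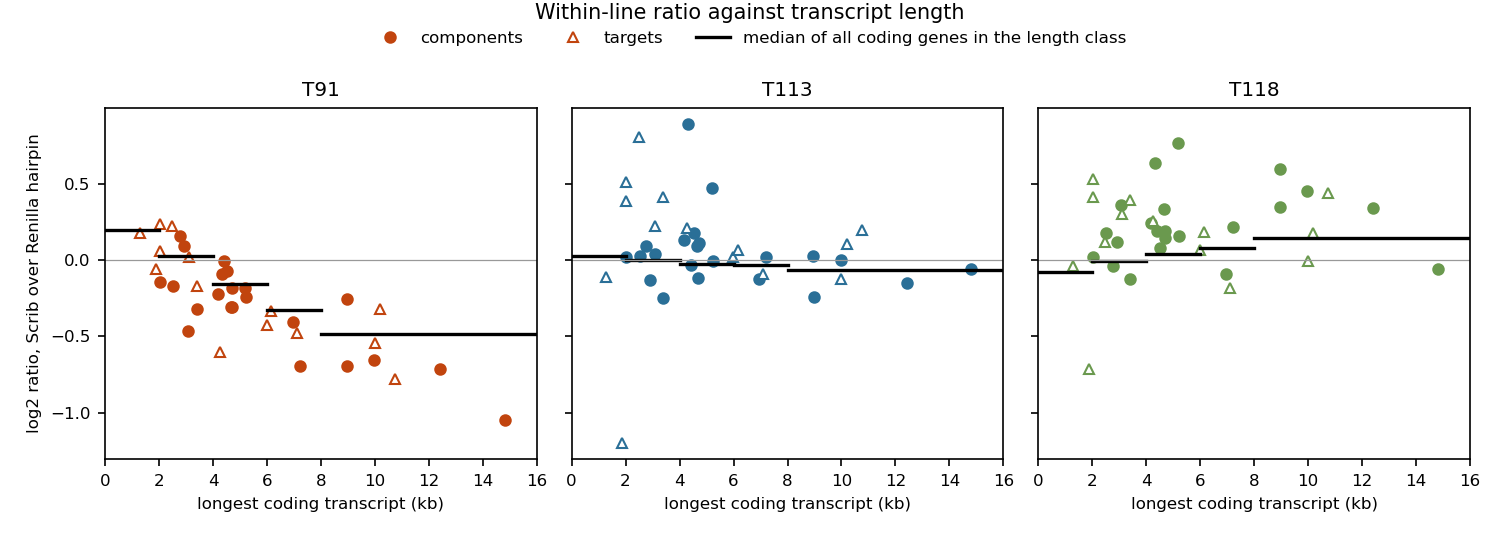
Log2 ratio of Scrib over Renilla hairpin in each line against the length of the longest coding transcript, for components (filled circles) and targets (open triangles). Black bars give the median of all protein-coding genes in each length class. With length it falls from 0.20 to -0.48 in T91 and from 0.02 to -0.06 in T113, and rises from -0.08 to 0.14 in T118.

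Without T91, the 2 genes Amotl2 and F3 passed the test, on 2 pairs and 1 residual degree of freedom. In that fit 0.654% of 14366 genes passed, 0.111% as higher, like Amotl2, and 0.543% as lower, like F3. At an unadjusted p under 0.05, 6 members were higher and 1 lower, 7 of 36, against 16.7% of all genes in either direction. Amotl2 stood at 0.76 (SE 0.10, adjusted p = 0.0209 by edgeR) and F3 at -0.96 (0.13, adjusted p = 0.0331). Lats2 at 0.62 (0.12, adjusted p = 0.0691 by edgeR), Ajuba at 0.40 (0.09, 0.0848) and Ankrd1 at 0.46 (0.13, 0.139) did not pass. Of the 22 components 18 were above 0, with a median of 0.10, and of the 14 targets 10 were, with a median of 0.19, against 49.4% of all genes. The coactivators did not pass, with Yap1 at 0.19 (0.09) and Wwtr1 at 0.01 (0.10). With T91 included, the same 2 genes had adjusted p-values of 0.753 and 0.742, so their calls rest on leaving that line out.

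Genes of the same pathway outside the 40 were read from 2 further lists. Of 44 further components, such as the MAP4K, TAOK and STRIPAK genes, 38 were tested, and 0 passed edgeR's adjusted test. Their median log2 change was -0.05, with 27 below 0 and 11 above, where 51.8% of all genes were below 0. In all 3 lines 10 were lower (26.3%, against 15.4% of all genes) and 1 was higher (2.63%, against 14.7%). The 4 with the smallest p were Stk38, an NDR kinase gene (log2 change -0.23, SE 0.09), Rassf4 (-0.64, 0.24), Mink1, a MAP4K family kinase gene (-0.23, 0.09), and Wtip, a relative of Ajuba (0.24, 0.10). Of 20 further targets 16 were tested, 8 below and 8 above 0, with a median of -0.08 and 0 past the test. Birc5, the survivin gene, which is also a mitotic gene, was higher in each line (log2 change 0.26, SE 0.09). The EGF-family ligand genes Ereg and Areg had log2 changes of -0.40 (0.18) and -0.47 (0.25), and Nt5e of -1.27 (0.36) at under 1 CPM. Without T91 the median of these further targets was -0.30, where that of the 14 targets above was 0.19, so the 2 lists of targets lay on opposite sides of 0.

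The third comparison asked how the pathway differed between the tumour lines, using both libraries of each line. By the F-test of the line terms in the same edgeR fit, 13 of 36 genes passed after adjustment (36.1%), against 14.0% of all genes tested. These were 6 of 22 components and 7 of 14 targets. Of the 7 kinases, scaffolds and adaptors 0 passed, at adjusted p-values from 0.216, and neither did Yap1 (0.854) or Wwtr1 (0.518). Between pairs of lines, 8 members were lower in T113 than in T91 (3.17% of all genes) and 1 was higher (2.89%). Against T91, T118 had 8 lower (5.80%) and 2 higher (5.24%), and against T113 it had 6 higher (4.91%) and 3 lower (5.34%). The 6 components called were Frmd6, the angiomotin genes Amot, Amotl1 and Amotl2, and Tead2 and Tead3, while Tead1 (0.4997) and Tead4 (0.245) did not pass. Of the core kinases, Lats2 had an adjusted p of 0.273 over all libraries and of 0.0351 without T91 (both by edgeR).

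Of the 7 targets called, 6 were highest in T91, and 5 were lowest in T113. Of all 14 targets tested 11 were highest in T91, against 4714 of all 14169 genes tested. The share of all genes lowest in T113 was not counted. Ankrd1 had line means of 57.6, 31.4 and 9.01 CPM in T91, T118 and T113, a 6.39-fold range, with an adjusted p of 0.000399 for the line by edgeR's F-test. Each of the 3 pairwise contrasts passed, at log2 differences of -2.69 for T113 against T91, -0.89 for T118 against T91 and 1.81 for T118 against T113 (standard errors 0.14, 0.13 and 0.13). Ccn1 had means of 28.9, 14.2 and 7.40 CPM in the same order, a 3.90-fold range (adjusted p = 0.00251 by edgeR), and its 3 pairwise contrasts passed too. Ccn2 had means of 155, 111 and 47.8 CPM (3.24-fold, adjusted p = 0.00513 by edgeR), where T118 and T91 did not differ past the threshold (adjusted p = 0.161). For all 3 genes the libraries of the lines did not overlap, and the order was the same with either hairpin. Ajuba and Amotl2 had the same order of line means, with ranges of 1.75-fold and 2.18-fold (adjusted p = 0.0453 and 0.0366 by edgeR). In these 2 genes the Scrib library of T118 was above that of T91, so the order held in the control libraries and not in the knockdown libraries. In all, 7 of the 13 genes called had the order T91, T118, T113, and 11 were highest in T91. Among these 7, Frmd6 too had T118 above T91 in the Scrib libraries. Called or not, 20 of the 36 members tested were highest in T91, against 4714 of all 14169 genes tested. The share of all called genes with either trait was not counted. The calls of Ccn2, Ajuba, Amotl2, Amot, Frmd6, Tead3 and Crim1 were lost when T113 was left out, and those of Tead2, Tead3, Axl and Crim1 when T118 was, while Ankrd1, Ccn1, Amotl1 and Asap1 passed without any 1 line.

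The promoters of Ccn1, Ajuba, Ankrd1 and Amotl2 are shown because these known YAP/TAZ targets share this order of line means. The letters CATTCC, and GGAATG on the other strand, are the core of the site that TEAD factors bind, and were searched on both strands in the 250 bases before each start in RefSeq (GRCm38.p6). Capitals mark the matches, sequences run 5′ to 3′ on the gene's strand, and a match is a description of letters and not a bound site.
Ccn1, chr3:145649986-145650235, minus strand, 1 match 103 bases before the start: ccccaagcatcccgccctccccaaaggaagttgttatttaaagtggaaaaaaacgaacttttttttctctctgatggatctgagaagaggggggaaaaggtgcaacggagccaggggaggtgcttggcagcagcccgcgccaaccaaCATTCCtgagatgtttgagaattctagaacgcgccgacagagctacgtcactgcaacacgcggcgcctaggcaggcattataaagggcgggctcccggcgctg
Ajuba, chr14:54577662-54577911, minus strand, 2 matches 186 and 164 bases before the start: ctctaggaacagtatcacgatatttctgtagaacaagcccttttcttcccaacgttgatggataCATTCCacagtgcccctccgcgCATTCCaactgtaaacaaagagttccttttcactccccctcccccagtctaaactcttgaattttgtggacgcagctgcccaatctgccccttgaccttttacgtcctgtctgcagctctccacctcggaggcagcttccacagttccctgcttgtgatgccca
For Ankrd1 and Amotl2, whose windows lie wholly or partly in exons annotated by GENCODE, the 30 bases around each match are given.
Ankrd1, chr19:36120037-36120066, minus strand, 210 bases before the start: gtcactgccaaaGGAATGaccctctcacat
Ankrd1, chr19:36119950-36119979, minus strand, 123 bases before the start: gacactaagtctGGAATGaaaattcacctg
Amotl2, chr9:102717727-102717756, plus strand, 65 bases before the start: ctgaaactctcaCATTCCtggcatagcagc

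Of the 40 genes 30 have a promoter in the RefSeq table, and Ccn2 is among those without an entry. The TEAD core was found for 6 of 10 targets (60.0%) and for 8 of 20 components (40.0%), among them Yap1 and Wwtr1, against 14.4% of 27025 genes. Amotl1 and Frmd6, also called with the order T91, T118, T113, had no match in their windows. Axl, Crim1 and Tead3, called with other orders, did have the TEAD core. A link between the TEAD core and the order of lines was not tested. An AP-1 site, TGACTCA or TGAGTCA, was found for 1 of the 10 targets, F3, and for 0 of the 20 components, against 5.16% of genes. The 30 bases around it are shown because it was the only AP-1 match among these genes. Of the 250 bases in the F3 window, 116 lie in annotated exons of Gm43823. A link between either motif and the hairpin changes was not tested.
F3, chr3:121723391-121723420, plus strand, 135 bases before the start: tgaatcacggtTGAGTCAcccctttcgggg

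Other members had other orders. Asap1, which encodes an Arf GTPase-activating protein, had line means of 86.1, 43.4 and 22.8 CPM in T91, T113 and T118 (3.78-fold, adjusted p = 0.00207 by edgeR), and Axl, a receptor tyrosine kinase gene, had 17.2, 13.8 and 4.535 CPM (3.78-fold, adjusted p = 0.0112). In the same order of lines, Asap1 stood at 96.1 and 76.2, 42.4 and 44.3, and 21.4 and 24.2 CPM (Renilla, then Scrib hairpin), with no overlap between lines. Axl stood at 20.7 and 13.6, 12.8 and 14.8, and 4.13 and 4.94 CPM, where T91 and T113 overlapped. Tead2 followed the same order, at 43.2, 36.6 and 15.1 CPM (2.86-fold, adjusted p = 0.00198 by edgeR), as did Tead3 at 27.1, 23.8 and 16.75 CPM (1.62-fold, 0.0353). T118 thus had the least of Tead2, Tead3, Axl and Asap1, but was not the lowest for Ankrd1, Ccn1 and Ccn2. Amotl1 had the widest range of the 36 genes tested, with 21.2 CPM in T91, 7.99 in T118 and 1.74 in T113 (12.2-fold, adjusted p = 0.00340 by edgeR). Amot ran in reverse, at 54.4 CPM in T113, 43.15 in T118 and 27.95 in T91 (1.95-fold, adjusted p = 0.0122 by edgeR). T91 is the female line and Amot is X-linked, and sex and line cannot be told apart here. Crim1, a transmembrane protein gene that binds growth factors, was highest in T118 at 101.7 CPM, above T91 at 68.6 and T113 at 57.9 (adjusted p = 0.0314 by edgeR).

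**Figure D4:**
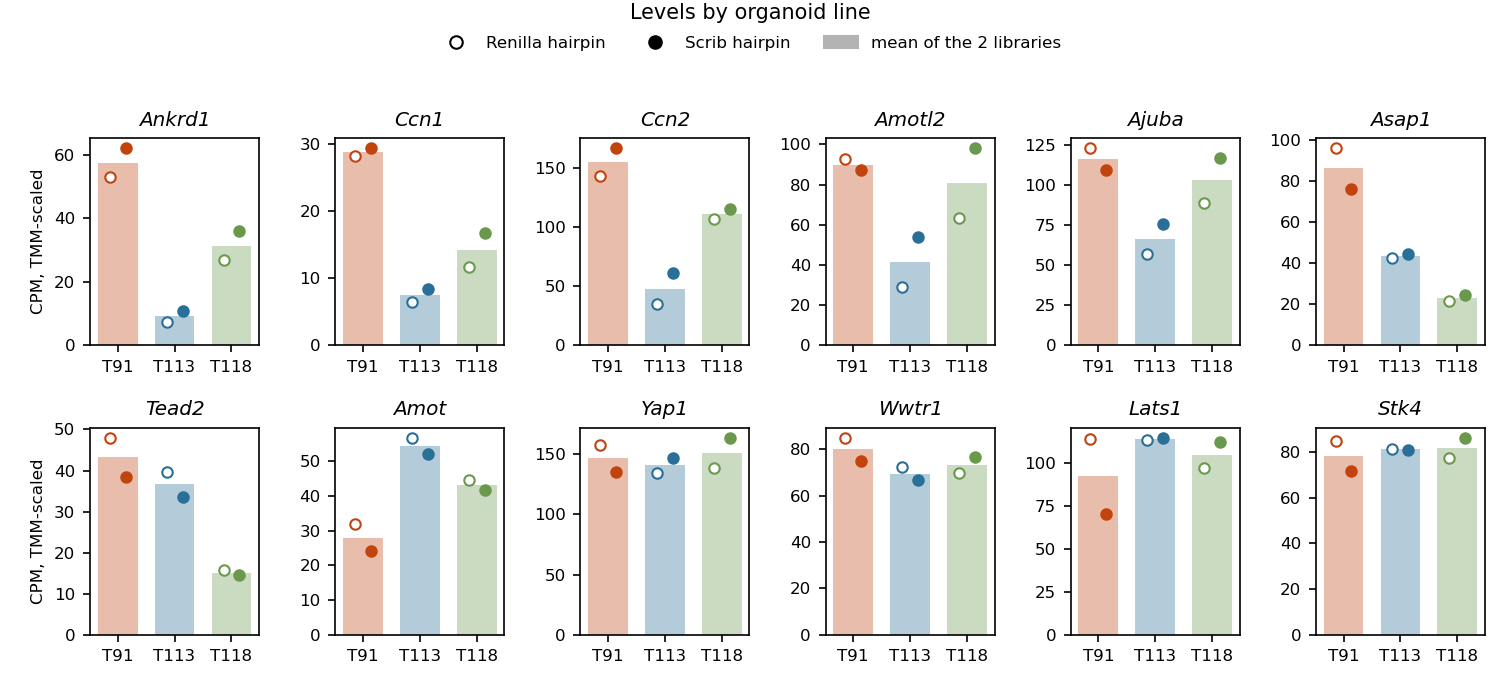
CPM after TMM scaling by line for 12 genes, with bars for the mean of the 2 libraries and points for the Renilla (open) and Scrib (filled) hairpin libraries. Ankrd1, Ccn1 and Ccn2 fall from T91 to T118 to T113 with either hairpin, while Yap1, Wwtr1, Lats1 and Stk4 do not differ between lines past the test.

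The line test was also fitted without the T91 library with few long transcripts. Without that library, 21 of 36 genes passed for the line (58.3%), against 24.9% of all genes, and they included all 13 of the genes above. The added genes were Lats2, Wwc1, Fat1, Tead4, Arhgef17, Ptpn14, Myof and Dock5. Yap1 and Wwtr1 again did not pass (adjusted p = 0.308 and 0.301 by edgeR). T91 is then represented by 1 library, whose spread is taken to be that of the other lines. This fit therefore cannot tell a difference of the T91 line from one of that library. In bulk RNA, fewer cells of a kind and less RNA per cell cannot be told apart, in these differences as in those between hairpins.

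Further targets outside the 40 also differed by line, 6 of 16 by the same F-test (37.5%, against 14.0% of all genes), but in various orders. Igfbp3, which encodes an IGF-binding protein, was at 61.4 and 54.8 CPM in T91 and between 0.944 and 1.43 in the other 4 libraries (adjusted p = 9.65e-05 by edgeR). Clu, the clusterin gene, was at 754 and 809 CPM in T91 and between 195 and 296 elsewhere (0.00219). Cavin2, a caveolar coat gene, was highest in T118, at 93.7 and 77.4 CPM, and lowest in T113, at 10.1 and 14.0 (0.00125). Of the further components 6 of 38 passed for the line (15.8%), close to the 14.0% of all genes. Rassf4, a RASSF family scaffold gene, was at 11.8 and 10.1 CPM in T113 against 0.403 to 3.12 elsewhere (0.00125).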

How the data were processed

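The authors deposited 1 table of estimated counts per library, per Ensembl gene and not scaled for depth. Salmon 1.4.0, DESeq 2 and the build GRCm38 are named, without roles, per the submitters' processing notes. How transcripts were summed, with which annotation and strand setting, is not given in the sources used here, so antisense or near-identical genes may trade counts.

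Counts were rounded and analysed in R 4.3.3. Symbols and lengths came from GENCODE M21 (GRCm38), where 54131 of 54453 identifiers had a symbol. After filterByExpr (minimum count 10), 14169 genes were fitted with edgeR 4.0.16 (TMM, robust quasi-likelihood F-tests, terms for line and hairpin, two-sided, Benjamini-Hochberg over all genes, threshold 0.05). Standard errors are the fold change over the root of F. Line ratios use CPM plus 0.1. The pairing is by line, and deviations from group means correlated within lines at 0.621, 0.666 and 0.662. No 2 libraries agreed within sampling noise (chi-square per degree of freedom from 24.9). The test was checked on simulated counts that lacked the length trend of the T91 Scrib library. This check therefore does not cover that trend.

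Members and lists were chosen with earlier results of these data known. Values per library are given for the effectors, Ccn1, Ccn2, Ankrd1, Amotl2, Lats2 and, among components and targets, the 5 smallest p-values for hairpin and line. Of each further list, up to 4 genes by p for hairpin and for line could be named. Nuak2, Taok1, Ajuba, Crim1 and the genes under the filter were named after their values were seen. Alternatives were DESeq2 1.42.0, limma-voom (limma 3.58.1), other scalings and filters, and leaving out lines. Centring by transcript length and leaving out the T91 Scrib library were added after the data were seen.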

Additional observations from a re-analysis of the deposited data

Results flagged for a closer look

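Amotl1 had a log2 ratio of Scrib over Renilla hairpin of -0.69 in T91 and of 0.59 in T118, opposite in sign and each past 1.5-fold. With 1 pair of libraries per line the difference between these lines was not tested. Its longest coding transcript of 8.96 kb is in the longest of the length classes, whose median log2 ratio over all protein-coding genes was -0.48 in T91 and 0.14 in T118.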

How the results depend on the processing

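Fitted without pairing by line (no replicate block), the hairpin test called 1 gene and 0 members, as with it. Genes called for the hairpin numbered 64 with no low-count filter, 63 by DESeq2, 8 by limma-voom, and 9 to 94 when 1 line was left out (25 without T118). The member count stayed at 0 in all of these but the fit without T91, with 2, where Amotl2 and F3 passed; the range over lines left out was 0 to 2. For the line test, 1308 genes passed with a mean CPM of at least 5, and 1209 to 3641 with a line or the T91 Scrib library left out, and 8 to 21 members did (8 without T113). Over all alternatives run, Ankrd1, Ccn1, Amotl1 and Asap1 were called for the line each time, and Ccn2 missed it without T113 (adjusted p = 0.191). The call was lost for Frmd6 and Ajuba with unscaled totals and the stricter filter. Signs were followed through all alternatives only for the members that the rule on values per library selected. Among these, log2 fold changes turned sign without T91 for Tead1 (0.23), Tead4 (0.20), Amotl1 (0.34), Asap1 (0.12), Axl (0.23) and Wwtr1 (0.011), and without T118 for Yap1 (-0.049). Outside that set, leaving out T91 also turned the sign for Lats1 (to 0.12), Taok1 (0.095), Ptpn14 (0.32) and Crim1 (0.046). The same held for Stk3, Stk4, Mob1b, Nf2, Vgll4, Arhgef17 and Gadd45b. Leaving out lines gave ranges of -0.33 to 0.23 for Tead1, -0.22 to 0.20 for Tead4, -0.41 to 0.34 for Amotl1, -0.14 to 0.12 for Asap1, -0.20 to 0.23 for Axl, -0.15 to 0.011 for Wwtr1 and -0.049 to 0.19 for Yap1. With the ratios centred by length, the medians were 0.03 for components and 0.08 for targets. Other causes were not tested. With no filter, 11 targets were called for the line against 7, with Rbms3 and Fjx1 among them. Fat4 and Dchs1 had at most 13 and 2 counts per library, too few to read a change from.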
